A study of Mus musculus with 43 samples.

Results

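The genes considered here are those behind the antigens by which the glial cells of this study were captured, 4 of the 55416 genes counted in every library. They are Ptprc, which encodes the surface protein CD45, Pdgfra, which encodes the growth factor receptor PDGFRα, Hepacam, which encodes the cell adhesion protein HepaCAM, and Ugt8a, which encodes the enzyme that makes the lipid galactosylceramide (GalC). They were chosen by their role in the purification and not by any measured value, though earlier results of these data were known. All 4 were counted in each of the 43 libraries. Their RNA was read as a measure of how far each purified population differed from the others in the very molecule it was selected on.

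In immunopanning a cell suspension is left on dishes coated with an antibody, and cells that carry the antigen stay bound. CD45 is a transmembrane tyrosine phosphatase of blood-derived and myeloid cells, and in healthy brain tissue it is known from microglia and from macrophages at the borders of the brain. PDGFRα is the receptor through which platelet-derived growth factors drive division of oligodendrocyte precursor cells (OPCs), and it is lost as these cells mature. GalC is a main lipid of myelin and a surface marker of oligodendrocytes, so its antibody binds a lipid whose amount the RNA of Ugt8a reports only indirectly. HepaCAM is an adhesion protein of astrocytes that brings the protein MLC1 and the chloride channel ClC-2 to contacts between these cells.

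Cells came from the cortical grey matter of perfused 3-month-old mice of 6 littermate pairs, each pair a control and a Rag2-/- mouse, which cannot form mature lymphocytes. The colony came from a cross of B6.Cg-Rag2tm1.1Cgn/J with C57BL/6J mice, and Rag2+/- parents gave the littermates. Controls were Rag2+/- in pairs 1, 2, 3 and 5 and Rag2+/+ in pairs 4 and 6. From each suspension microglia were taken first on CD45 plates, then OPCs on a PDGFRα plate, oligodendrocytes on GalC plates and astrocytes on a HepaCAM plate, with plates for the antigen O4 before the GalC plates to remove more OPCs. This gave 12 microglia libraries (6 control, 6 Rag2-/-), 11 OPC libraries (6 and 5), 8 oligodendrocyte libraries (4 and 4) and 12 astrocyte libraries (6 and 6), and 7 of the 12 mice gave all 4 cell types. The Rag2-/- mice, written Rag2 KO here, carry a germline knockout. Control and knockout mice of a pair had the same sex except in pair 6, with a male control and a female knockout. Libraries are named below by group and pair number. All libraries of a cell type were pooled on the same sequencing lane, so a difference between cell types cannot be told apart from one between lanes. As far as the methods tell, each library is 1 mouse, so the spread between libraries is a spread between mice.

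Depth was 6499417 to 23118497 read pairs on genes per library, with a median of 10447042. The share of these counts on mitochondrially encoded genes differed between the cell types, at 6.76 to 11.7% in microglia, 22.4 to 36.7% in OPCs, 22.5 to 45.1% in astrocytes and 45.8 to 60.1% in oligodendrocytes. Levels are given as CPM, the count of a gene scaled to a total of 1000000 gene counts. This total includes the mitochondrial genes, so CPM carries the difference in their share. Where it matters, levels are therefore also given as CPM scaled by TMM factors, which correct each library's total for the few genes that dominate it. Rag2 itself had no count in any of the 21 knockout libraries and at most 4 counts in a control library, so these cells gave no check of the genotype from it. All 43 sex labels matched the level of Xist, taken as above or below 10 CPM.

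The labelled cell types were read on panels of marker genes without the antigen genes. The panels were chosen with earlier results of these data known, so they are no independent check of the labels. All 14 microglia, 10 OPC, 12 oligodendrocyte and 14 astrocyte panel genes had their highest mean CPM in their own cell type. Every microglia, OPC and astrocyte panel gene was higher in each of its own libraries than in any other library. Only 4 of the 12 oligodendrocyte panel genes were free of such overlap in CPM, against 11 of 12 with TMM scaling, where 9 of 10 OPC genes were. The share of all genes without such overlap was not counted, so these counts describe the panel genes only. By a different measure, the edgeR quasi-likelihood test described below, 76.7% of all genes differed between microglia and the mean of the other cell types. The share was 46.6% between OPCs and the others, 51.2% between oligodendrocytes and the others and 58.2% between astrocytes and the others.

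The gene Ptprc (ENSMUSG00000026395) lies on the minus strand of chromosome 1, from 137990599 to 138103446 in the mouse genome GRCm39. Its level in microglia controls ran from 403.1 over a median of 438 to 519.7 CPM. In Rag2 KO microglia it ran from 336.8 over a median of 404.3 to 436.1 CPM. The 12 microglia libraries lay close together, with a mean of 419.4 ± 46.4 CPM (SD, n = 12), and the control and knockout ranges overlapped.

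In the other cell types Ptprc was counted at a small part of this level. Control OPCs ran from 3.90 over a median of 13.2 to 34.2 CPM, and Rag2 KO OPCs of pairs 1, 2, 3, 4 and 6 had 7.73, 7.97, 29.3, 10.8 and 8.44 CPM. Control oligodendrocytes of pairs 1, 3, 5 and 6 had 7.19, 30.5, 7.77 and 8.44 CPM, and the Rag2 KO oligodendrocytes of the same pairs 2.48, 30.2, 22.5 and 4.92 CPM. Astrocytes ran from 0.729 to 5.11 CPM in controls, with a median of 2.38, and from 0.451 to 5.86 in Rag2 KO, with a median of 1.37. No library of another cell type came near the lowest microglia library. The highest of them had 34.2 CPM. Within OPCs and within oligodendrocytes the level varied widely from one mouse to the next, and the astrocytes, panned last, had the lowest mean, though some of their libraries lay above the lowest OPC and oligodendrocyte libraries.

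Expressed as a percent of the microglia mean, Ptprc stood at 3.47% ± 2.52 (SD, n = 11) in OPCs, 3.40% ± 2.76 (n = 8) in oligodendrocytes and 0.590% ± 0.459 (n = 12) in astrocytes. With TMM scaling the value in oligodendrocytes was 6.34%, against 3.19% in OPCs and 0.744% in astrocytes. Bulk RNA cannot tell RNA from cells of another type apart from RNA made by the panned cells, nor fewer cells of a type from less RNA per cell, and this holds for every percent given here.

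The gene Pdgfra (ENSMUSG00000029231) lies on chromosome 5 from 75311994 to 75358876 on the plus strand. Per length of exon, as given below, it was the most abundant of the 4 antigen RNAs in the cells panned on them. OPC controls ran from 1714 over a median of 2145 to 2627 CPM. The Rag2 KO OPCs of pairs 1, 2, 3, 4 and 6 had 1829, 1820, 2046, 1572 and 1934 CPM. The mean over all 11 OPC libraries was 2034 ± 326 CPM (SD).

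Oligodendrocytes held the next highest Pdgfra level. The controls of pairs 1, 3, 5 and 6 had 89.4, 205, 123 and 59.4 CPM, and the Rag2 KO libraries of these pairs 178, 199, 129 and 36.4 CPM. Astrocytes had a median of 20.8 CPM in controls, from 9.02 to 95.02, and of 26.9 in Rag2 KO, from 17.3 to 67.4. Microglia controls ran from 0.615 over 9.78 to 21.3 CPM and Rag2 KO microglia from 2.42 over 9.62 to 32.7 CPM. The lowest OPC library thus lay above the highest library of any other type, an oligodendrocyte library at 205 CPM.

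As a percent of the OPC mean, Pdgfra was at 6.26% ± 3.11 (SD, n = 8) in oligodendrocytes, 1.66% ± 1.27 (n = 12) in astrocytes and 0.574% ± 0.473 (n = 12) in microglia. TMM scaling moved the oligodendrocyte value to 12.8%, while the astrocyte value became 2.26% and the microglia value 0.598%. Of the bases in Pdgfra exons, 5.07% are also exon of genes on the opposite strand, Gm42802 and Gm42803. It is not stated whether counting used strand, so reads there cannot be told apart.

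The gene Ugt8a (ENSMUSG00000032854) lies on chromosome 3 from 125654459 to 125732736 on the minus strand. Its product, UDP-galactose ceramide galactosyltransferase, joins galactose to ceramide. Control oligodendrocytes of pairs 1, 3, 5 and 6 had 356.5, 271, 146 and 181 CPM, and Rag2 KO oligodendrocytes 259, 338, 246 and 198 CPM. The mean was 249.6 ± 73.6 CPM (SD, n = 8), a spread of 29.5% of the mean, the widest of the 4 antigen genes in their own cells.

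Ugt8a RNA was not limited to the oligodendrocyte libraries. Control OPCs ran from 83.5 over 140.5 to 167 CPM, and Rag2 KO OPCs of pairs 1, 2, 3, 4 and 6 had 130, 142, 109, 95.7 and 123 CPM. Astrocytes ran from 53.9 over 107 to 124 CPM in controls and from 56.0 over 70.8 to 151 CPM in Rag2 KO. Microglia held between 0.372 and 4.90 CPM, from 3 to 67 counts. The OPC and astrocyte libraries with the most Ugt8a, 167 and 151 CPM, exceeded the lowest oligodendrocyte library in CPM. With TMM scaling no OPC or astrocyte library reached any oligodendrocyte library.

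In percent of the oligodendrocyte mean, Ugt8a was at 50.2% ± 11.04 (SD, n = 11) in OPCs, 35.9% ± 12.1 (n = 12) in astrocytes and 0.756% ± 0.628 (n = 12) in microglia. With TMM scaling these were 23.9%, 22.95% and 0.384%, and with mitochondrial genes left out of the total the OPC value was 32.4%. Within the 7 mice that gave both cell types, the OPC level was between 30.8% and 107% of the same mouse's oligodendrocyte level, with a median of 50.1%.

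The gene Hepacam (ENSMUSG00000046240) lies on chromosome 9 from 37278621 to 37299291 on the plus strand. Astrocyte controls ran from 373 over 537 to 592 CPM and Rag2 KO astrocytes from 387 over 484 to 594.5 CPM. The mean was 506 ± 70.6 CPM (SD, n = 12), and with TMM scaling the spread fell from 13.95% to 8.79% of the mean.

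Hepacam was also found at a high level in OPCs and oligodendrocytes. OPC controls ran from 209 over 234 to 299 CPM, and Rag2 KO OPCs of pairs 1, 2, 3, 4 and 6 had 332.5, 272, 220, 248 and 241 CPM. Control oligodendrocytes of pairs 1, 3, 5 and 6 had 170.5, 174, 90.8 and 105 CPM, and Rag2 KO oligodendrocytes 146.5, 160, 147 and 85.0 CPM. Microglia held 0.308 to 12.3 CPM. The highest OPC library, 332.5 CPM, stayed under the lowest astrocyte library, 373 CPM.

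This put Hepacam at 49.6% ± 7.34 (SD, n = 11) of the astrocyte mean in OPCs, 26.6% ± 7.09 (n = 8) in oligodendrocytes and 0.839% ± 0.706 (n = 12) in microglia. TMM scaling turned the order of OPCs and oligodendrocytes around, with 37.6% and 42.0%. Leaving mitochondrial genes out of the total gave 45.3% in OPCs and 37.4% in oligodendrocytes.

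**Figure D1:**
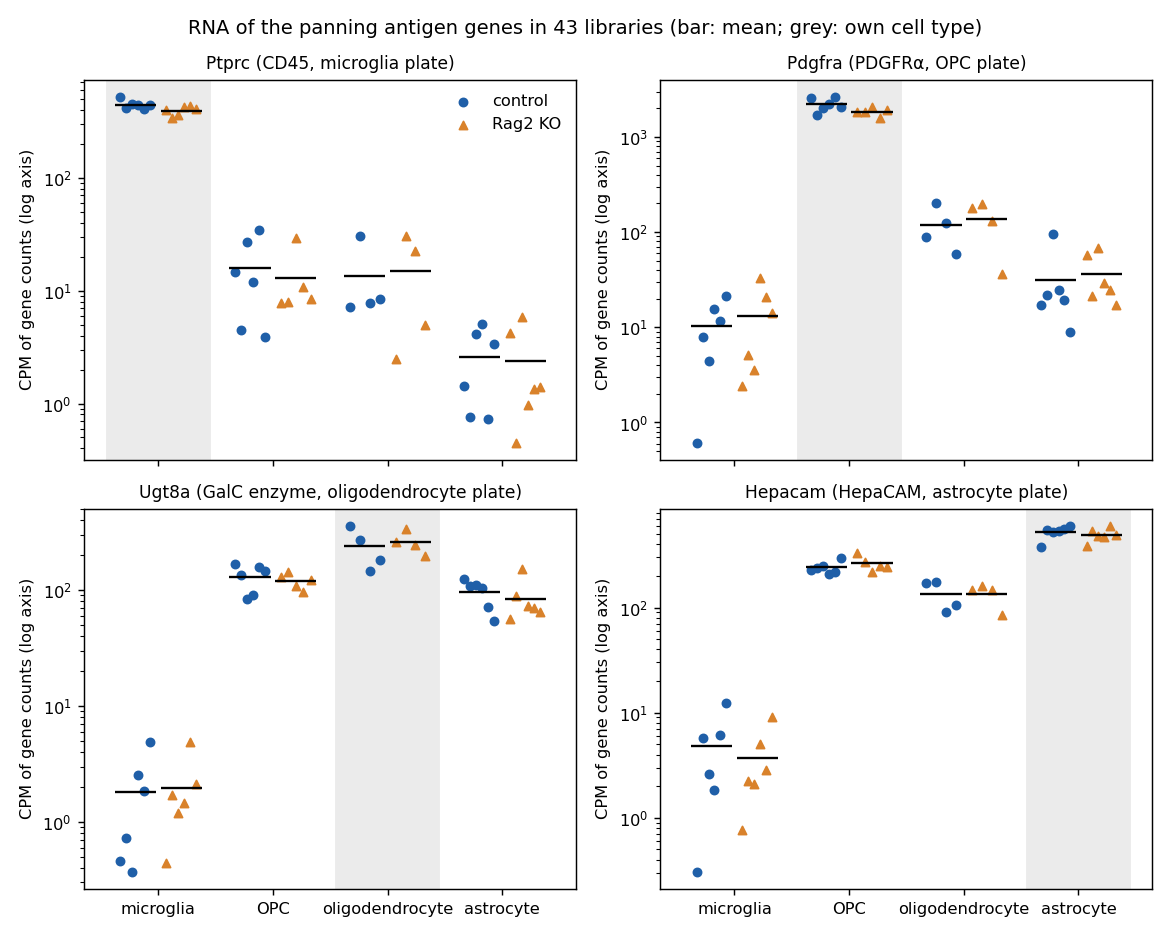
Level of each antigen gene in the 43 libraries, in CPM on a log axis, by cell type; each point is 1 library (circle, control; triangle, Rag2 KO), each bar a group mean, and the grey field marks the cell type panned on that antigen. Microglia at 419.4 CPM of Ptprc and OPCs at 2034 CPM of Pdgfra stand far above the rest. The gaps are smaller for Ugt8a in OPCs (50.2% of the own mean) and astrocytes (35.9%) and for Hepacam in OPCs (49.6%) and oligodendrocytes (26.6%).

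Scored as the percent of its own cell type's level, the antigen gene of the plate was the highest of the 4 in each of the 43 libraries, with CPM and with TMM scaling alike. That level is the mean over the very libraries scored, so their own percents centre on it by construction. The count is therefore no independent check of purity. The plate's own gene stood at 80.3% or more in every microglia library, 77.3% or more in OPCs, 73.6% or more in astrocytes and 58.6% or more in oligodendrocytes. The next gene differed by cell type. In microglia it never passed 2.42%, while in OPCs it reached 66.8%, in astrocytes 60.4% and in oligodendrocytes 34.3%. It was Hepacam in 8 of 8 oligodendrocyte libraries and Ugt8a in 12 of 12 astrocyte libraries.

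Levels of different genes can be compared only per length of RNA, taken here as all annotated exon bases of a gene. The transcripts present can be shorter, so an order between genes depends on this length. Per kilobase of exon the plate's own gene was the highest of the 4 in 12 of 12 microglia, 11 of 11 OPC and 12 of 12 astrocyte libraries, but in 1 of 8 oligodendrocyte libraries. In oligodendrocytes Hepacam had 27.3 ± 7.27 and Ugt8a 23.5 ± 6.93 CPM per kilobase (SD, n = 8), a difference smaller than the spread between libraries. In CPM, without the length, the order was the reverse, with means of 249.6 for Ugt8a and 134.9 for Hepacam. Which RNA had more molecules in oligodendrocytes is therefore not settled. In OPCs Pdgfra had 165 ± 26.5 CPM per kilobase, Hepacam 50.8 ± 7.53 and Ugt8a 11.8 ± 2.60 (n = 11). In astrocytes Hepacam had 103 ± 14.3 and Ugt8a 8.45 ± 2.84 CPM per kilobase (n = 12), and in microglia Ptprc had 22.4 ± 2.47 and none of the others reached 1 CPM per kilobase on average.

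Differences between cell types were tested over 19209 genes with edgeR's quasi-likelihood test in 1 fit of all libraries, with cell type, genotype and sex as terms and TMM factors. A gene was called at a Benjamini-Hochberg adjusted p under 0.05. Most genes differ between glial types, so a call alone says little. Of all genes tested, 71.7% were called between microglia and OPCs, 69.7% between microglia and oligodendrocytes, 72.0% between microglia and astrocytes, 40.4% between OPCs and oligodendrocytes, 44.2% between OPCs and astrocytes and 51.5% between oligodendrocytes and astrocytes.

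Each antigen gene was higher in its own cell type than in every other. Ptprc was higher in microglia by 5.00 ± 0.39 (log2 fold change ± SE) over OPCs with an edgeR adjusted p of 2.7e-15, by 4.01 ± 0.43 over oligodendrocytes and by 7.14 ± 0.43 over astrocytes. Pdgfra was higher in OPCs by 7.37 ± 0.45 over microglia, by 5.54 ± 0.41 over astrocytes and by 3.01 ± 0.43 over oligodendrocytes, the last with an edgeR adjusted p of 1.8e-07. Ugt8a was higher in oligodendrocytes by 7.94 ± 0.32 over microglia, 2.06 ± 0.26 over OPCs and 2.12 ± 0.25 over astrocytes, with an edgeR adjusted p of 7.6e-09 against OPCs. Hepacam was higher in astrocytes by 7.19 ± 0.30 over microglia, 1.40 ± 0.23 over OPCs and 1.24 ± 0.26 over oligodendrocytes, the last with an edgeR adjusted p of 9.1e-05. These 12 differences kept their direction and their call under each alternative scaling, filter, tool and sample set, and without any 1 library.

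The order of the cell types that were not panned on the antigen was less settled. Ugt8a in OPCs and astrocytes differed by a log2 fold change of 0.06, with a 95% interval from -0.40 to 0.52 and an edgeR adjusted p of 0.852. For Hepacam, OPCs over oligodendrocytes gave -0.16, with an interval from -0.67 to 0.35 and an edgeR adjusted p of 0.641, but 0.89 with total counts in place of TMM factors, where the edgeR adjusted p was 0.00497. Ptprc was lower in OPCs than in oligodendrocytes by a log2 fold change of -0.998 ± 0.375, with an edgeR adjusted p of 0.0302. That call was lost with the mouse as a block (-0.74, edgeR adjusted p = 0.116) and the difference was 0.036 with total counts. The other neighbours in the order were called. Ptprc was higher in OPCs than in astrocytes by 2.13 ± 0.38, and Pdgfra was higher in oligodendrocytes than in astrocytes by 2.53 ± 0.38 and lower in microglia than in astrocytes, at -1.83 ± 0.36. Microglia held less Ugt8a than astrocytes, at -5.82 ± 0.29, and less Hepacam than oligodendrocytes, at -5.95 ± 0.29.

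An antigen RNA in libraries of another type was next set beside a panel of marker genes of the antigen's cell type, measured the same way, as the percent of the own-type mean. The percent for a panel is the median over its genes. Panel genes were picked as markers, so their percents describe these genes only.

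For Ptprc the panel stood higher than the antigen gene. The 14 microglia panel genes had a median of 5.14% in OPCs, 4.33% in oligodendrocytes and 1.36% in astrocytes. In OPCs and astrocytes none of the 14 lay under Ptprc, and in oligodendrocytes 4 did. Over single libraries Ptprc was above the panel median in 1 of 11 OPC, 3 of 8 oligodendrocyte and 1 of 12 astrocyte libraries. The panel gene with the highest percent in all 3 types was Sall1, a transcription factor of microglia, at 24.2% in astrocytes.

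Pdgfra likewise followed its panel. The 10 OPC panel genes had a median of 8.31% in oligodendrocytes, where Pdgfra was at 6.26%, of 2.12% in astrocytes, where it was at 1.66%, and of 0.698% in microglia, where it was at 0.574%. It exceeded 1 panel gene in oligodendrocytes, none in astrocytes and 4 in microglia. The panel gene with the highest percent in oligodendrocytes was Tnr, which encodes the matrix protein tenascin R, at 17.1%.

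Ugt8a stood apart from its panel in OPCs. All 12 oligodendrocyte panel genes lay under it there, with a median of 8.02% against 50.2%, and the highest of them, the gap junction gene Gjb1, was at 23.7%. The ranges over the 11 OPC libraries did not overlap, with 33.4 to 66.8% for Ugt8a and 1.79 to 20.2% for the panel median. In astrocytes Ugt8a was at 35.9% and the panel at 37.1%, and 5 of the 12 panel genes lay under Ugt8a. In microglia Ugt8a was at 0.756% and the panel at 0.480%. The same counts of panel genes, 12, 5 and 9 of 12, lay under Ugt8a with TMM scaling.

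Hepacam stood above all 14 astrocyte panel genes in both OPCs and oligodendrocytes. The panel had a median of 15.7% in OPCs and 3.20% in oligodendrocytes, against 49.6% and 26.6% for Hepacam. The panel gene with the highest percent was the glutamate transporter gene Slc1a2 in both, at 22.8% and 7.74%. Hepacam was above the panel median in 11 of 11 OPC and 8 of 8 oligodendrocyte libraries, and in oligodendrocytes its range of 16.8 to 34.3% lay apart from the panel's 1.86 to 6.08%. In microglia Hepacam, at 0.839%, and the panel, at 0.743%, were alike in size, with 8 of 14 panel genes under Hepacam.

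**Figure D2:**
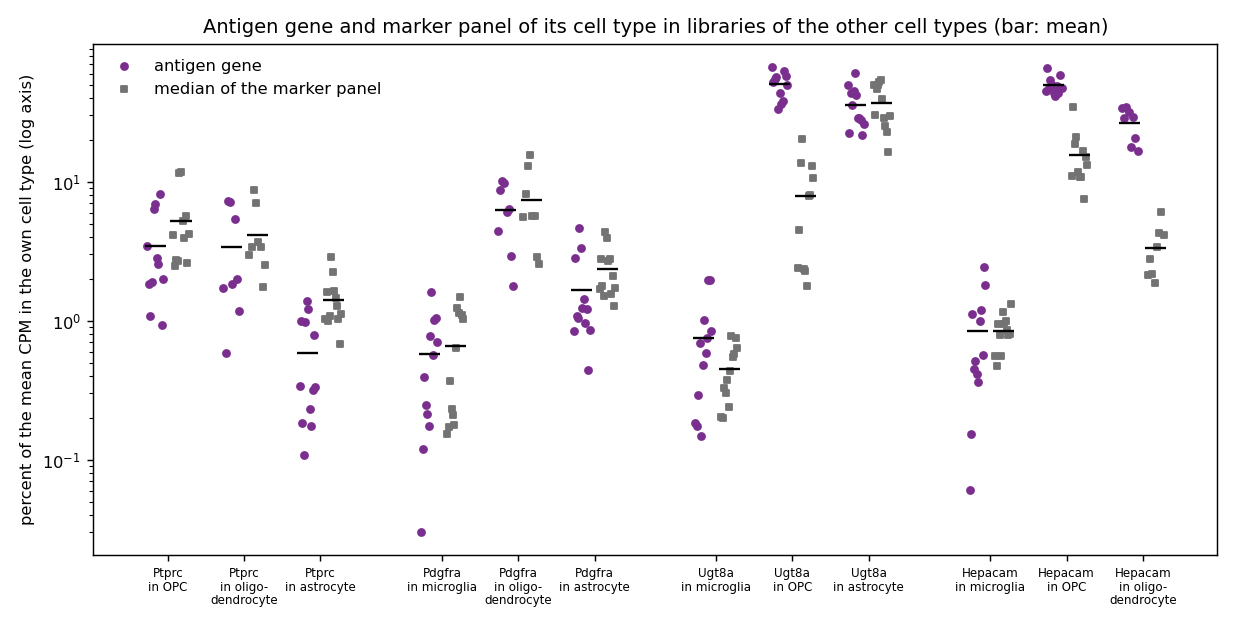
Percent of the own cell type's mean CPM (log axis) for each antigen gene (purple circles) and for the median of the marker panel of the same cell type (grey squares), in libraries of the other 3 cell types; each point is 1 library and each bar a mean. Ugt8a in OPCs (50.2%) and Hepacam in OPCs (49.6%) and oligodendrocytes (26.6%) lie above their panels in every library, whereas Ptprc and Pdgfra lie at or under theirs on average.

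Whether antigen and panel moved together from library to library was asked for the 12 pairs of gene and other cell type. Both values of a point share a library and its total count. Two-sided permutation p-values were adjusted over the 12 relations and count littermates as independent, although libraries of a pair can be alike. With the mean of each littermate pair as 1 point, 9 relations had 6 pairs, and only that of Ugt8a in astrocytes passed after adjustment over the 9 (r = 0.94, exact permutation adjusted p = 0.0125). The other 8 had an exact permutation adjusted p of 0.0625 or above, with r from 0.43 to 0.94. Over single libraries, as in all values that follow, Pdgfra tracked the OPC panel in each other type, with Pearson r = 0.93 in astrocytes (Spearman rho 0.94, n = 12, permutation adjusted p = 0.00012, whose raw value of 1e-05 is the smallest that 100000 permutations can give), 0.91 in oligodendrocytes (rho 0.98, n = 8, exact permutation adjusted p = 0.0030) and 0.86 in microglia (rho 0.92, n = 12, permutation adjusted p = 0.0015). Without the 2 libraries farthest from the panel median r was 0.76, 0.96 and 0.87. Within control and within Rag2 KO libraries r was 0.96 and 0.89 in astrocytes and 0.83 and 0.88 in microglia, while oligodendrocyte groups of 4 were too few to be read alone.

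Ptprc tracked the microglia panel in OPCs, with r = 0.79 (rho 0.88, n = 11, permutation adjusted p = 0.0176) and 0.79 again without the 2 farthest libraries. Its r over the 6 control OPC libraries was 0.69. In oligodendrocytes r was 0.84 (rho 0.52, n = 8, exact permutation adjusted p = 0.0266) but 0.17 without the 2 farthest libraries, and in astrocytes 0.64 (rho 0.54, n = 12, permutation adjusted p = 0.0283) but 0.43 without them. Neither relation was past the threshold without those libraries, but leaving them out also narrows the range of panel values and leaves fewer points. Within astrocytes r was 0.51 in controls and 0.90 in Rag2 KO.

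Ugt8a tracked the oligodendrocyte panel in astrocytes, with r = 0.88 (rho 0.86, n = 12, permutation adjusted p = 0.0015), 0.86 without the 2 farthest libraries, 0.97 within controls and 0.83 within Rag2 KO. In microglia r was 0.66 (rho 0.66, permutation adjusted p = 0.0283), 0.70 without the 2 farthest, and 0.91 and 0.44 within controls and Rag2 KO. In OPCs r was 0.40 (rho 0.53, n = 11, permutation adjusted p = 0.224), and 0.43 over the 6 control libraries, so no relation was detectable there.

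Hepacam followed the astrocyte panel in OPCs with r = 0.84 (rho 0.80, n = 11, permutation adjusted p = 0.0078), which fell to 0.51 without the 2 farthest libraries and was 0.49 over the 6 controls. In oligodendrocytes r had the opposite sign, at -0.68 (rho -0.64, n = 8, exact permutation adjusted p = 0.0707), and -0.69 without the 2 farthest libraries. In microglia r was 0.46 (rho 0.48, n = 12, permutation adjusted p = 0.151), 0.15 without the 2 farthest, and 0.37 and 0.77 within controls and Rag2 KO. None of the 3 Hepacam relations held in every one of these readings.

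**Figure D3:**
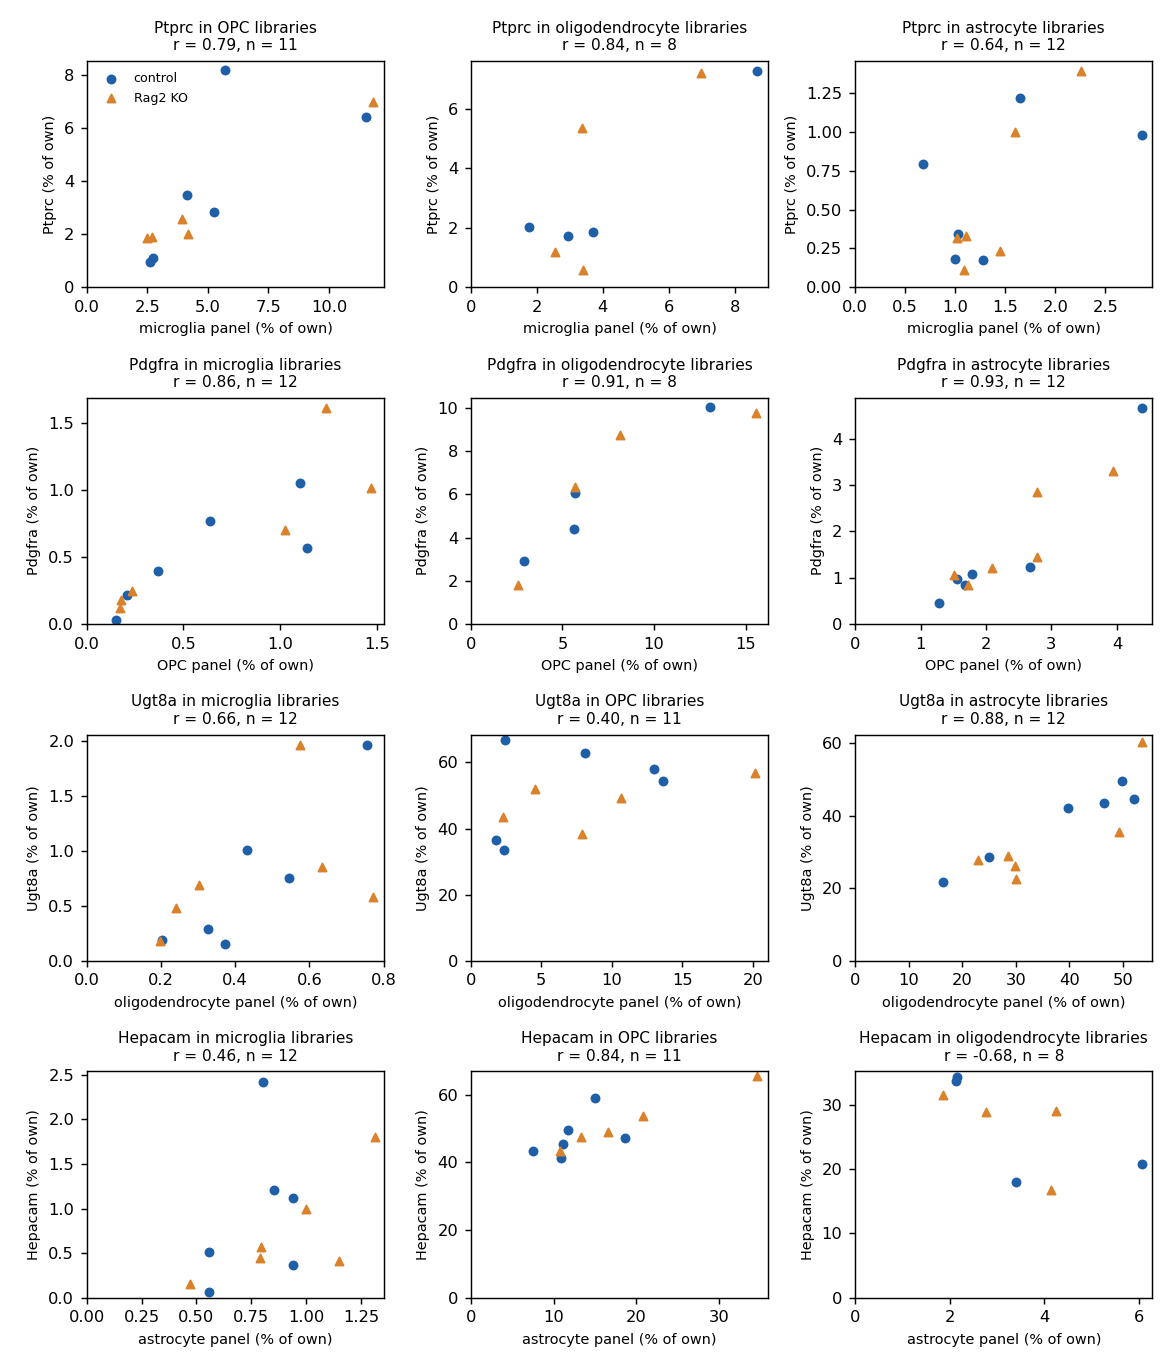
Antigen gene against the marker panel of its cell type in libraries of each other type, both as percent of the own-type mean CPM (linear axes from 0); each point is 1 library (circle, control; triangle, Rag2 KO), with Pearson r and n above each plot. The points of Pdgfra rise together with its panel in all 3 types (r from 0.86 to 0.93), and those of Hepacam in oligodendrocytes fall (r = -0.68).

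The genes whose pattern over all 43 libraries was most like that of each antigen gene were sought among 14065 protein-coding genes, by Pearson r of log2(TMM-scaled CPM + 1). The points share cell types and libraries, so r is a description. For Ptprc the first 5 were Ctss (r = 0.98), which encodes the lysosomal protease cathepsin S, the purinergic receptor gene P2ry12, B2m, which encodes the light chain of MHC class I, Ucp2, a mitochondrial carrier gene, and the fractalkine receptor gene Cx3cr1. Of the 14 microglia panel genes, 12 were among the 100 genes most like Ptprc. For Pdgfra the first were Lhfpl3 (r = 0.99), the cadherin gene Pcdh15, Gpr17, which encodes a receptor of cells starting to differentiate from OPCs, Cacng4, a gene for an accessory subunit of glutamate receptors, and the sialidase gene Neu4, and 8 of the 10 OPC panel genes were among the first 100.

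The other antigen genes had other company. For Ugt8a the first were Enpp2 (r = 0.99), which encodes the enzyme autotaxin, the receptor phosphatase gene Ptprd, Edil3, which encodes a secreted integrin ligand, Septin8, a gene for a cytoskeletal filament protein, and the tetraspanin gene Tspan2, the 1 oligodendrocyte panel gene of 12 among the first 100. Like Ugt8a, Enpp2 had its highest mean CPM in oligodendrocytes, at 742, with 377 in OPCs, 316.5 in astrocytes and 7.63 in microglia. For Hepacam the first were Omg (r = 0.99), which encodes oligodendrocyte myelin glycoprotein, Fam171b, the semaphorin gene Sema6d, Megf10, which encodes a receptor for engulfment, and Srgap3, a gene for a GTPase-activating protein. None of the 14 astrocyte panel genes was among the first 100 for Hepacam. Omg had a mean of 342.5 CPM in astrocytes, 282 in OPCs, 137 in oligodendrocytes and 10.99 in microglia.

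Genes that work with each antigen were read from 4 lists, as the difference between the antigen's own cell type and the mean of the other 3 on the log2 scale. Of 15 genes around CD45, 13 passed the filter on low counts, 12 were higher in microglia and 1 was lower, where 35.8% of all genes were higher and 40.9% lower. Their median log2 difference was 3.95, against -0.12 over all genes. Among the largest differences were those of the Src-family kinase gene Fgr (5.46 ± 0.50) and of Ptpn6 (5.44 ± 0.30), which encodes the phosphatase SHP-1. CD45 acts on kinases of this family by removing an inhibitory phosphate. The smallest were those of Pag1 (2.04 ± 0.13), an adaptor for the kinase Csk, Lgals1 (1.71 ± 0.29), a galectin gene, and Fyn, a Src-family kinase gene that was lower in microglia, at -2.94 ± 0.15. Fyn had a mean of 12.97 CPM in microglia and 129.7 in OPCs. Ptprcap, which encodes the CD45-associated protein of lymphocytes, had no count in any library, and Skap1 did not pass the filter.

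The PDGF list held the other receptor, the ligands and a receptor-like gene. Of its 6 genes, 3 were higher in OPCs than in the mean of the others, 1 was lower and 2 were not called, where 29.4% of all genes were higher and 17.2% lower, with a median log2 difference of 0.62 against 0.12 over all genes. Higher were Pdgfd (1.53 ± 0.47), Pdgfrl (1.42 ± 0.47) and Pdgfrb (0.99 ± 0.30), and lower was the ligand gene Pdgfa, at -0.96 ± 0.14. Pdgfb (-0.65, edgeR adjusted p = 0.146) and Pdgfc (0.25, edgeR adjusted p = 0.387) did not pass. None of the 6 had its highest mean in OPCs. Pdgfa and Pdgfb, which encode ligands of PDGFRα, were at 179 and 505.5 CPM in microglia and at 36.6 and 17.5 CPM in OPCs, and both were higher in microglia than in OPCs, by 2.42 ± 0.16 and 4.97 ± 0.47. Pdgfrb was at 88.7 CPM in astrocytes and 23.8 in OPCs, lower in OPCs by a log2 fold change of -2.27 ± 0.38. Pdgfrb and Pdgfrl lost their call with control libraries alone, and Pdgfd with Rag2 KO libraries alone.

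In the galactolipid pathway, from serine and fatty acid to ceramide, GalC and sulfatide and their breakdown, all 12 genes were tested. In oligodendrocytes 6 were higher than in the mean of the others, 2 were lower and 4 were not called, where 27.5% of all genes were higher and 23.7% lower. The median log2 difference was 0.29, against -0.03 over all genes. Fa2h, which encodes the hydroxylase that supplies the 2-hydroxy fatty acids of myelin GalC, had the largest difference, 4.64 ± 0.21, and a mean of 312 CPM in oligodendrocytes, 110 in astrocytes, 93.3 in OPCs and 1.20 in microglia. Gal3st1, which encodes the enzyme that turns GalC into sulfatide, was higher by 2.89 ± 0.26. Its level in OPCs, 22.3 CPM, was above that in oligodendrocytes, 10.4 CPM, and with TMM factors these types differed by -0.02 ± 0.30. Cers2, the ceramide synthase gene for very long chains, was higher by 1.51 ± 0.10. Psap, which encodes the precursor of the saposins, was lower, at -0.85 ± 0.08. So was Ugcg, which encodes the competing enzyme that makes glucosylceramide, at -0.63 ± 0.15. Against astrocytes alone Ugcg was higher in oligodendrocytes, by 0.65 ± 0.17 (edgeR adjusted p = 0.0015). Its call against the mean of the others was lost with Rag2 KO libraries alone, at -0.27. Sptlc1, a gene for a subunit of the enzyme at the start of the pathway, was at -0.28 with an edgeR adjusted p of 0.0845. The counts of genes higher and lower depended on scaling. With total counts in place of TMM factors 3 genes were higher and 8 lower, and Degs1, Arsa and Cerk changed sign, while Fa2h, Gal3st1 and Cers2 were still called higher.

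Of 10 genes around HepaCAM, 9 passed the filter, 8 were higher in astrocytes and 1 was lower, where 27.8% of all genes were higher and 30.4% lower. The median log2 difference was 4.22, against -0.08 over all genes. The largest differences were those of the water channel gene Aqp4 (5.28 ± 0.23) and of the gap junction genes Gja1 (5.13 ± 0.23) and Gjb6 (5.05 ± 0.24). Mlc1, the partner that HepaCAM brings to cell contacts, was higher by 4.76 ± 0.20, with 325.5 CPM in astrocytes, 51.3 in OPCs and 13.2 in oligodendrocytes. Kcnj10, which encodes the potassium channel Kir4.1, and Clcn2, which encodes ClC-2, were higher by 2.39 ± 0.08 and 1.64 ± 0.18, less than Mlc1. Kcnj10 had 414 CPM in astrocytes, 278 in OPCs and 198 in oligodendrocytes. Trpv4, a cation channel gene, was lower in astrocytes than in the mean of the others, at -1.82 ± 0.45, from levels under 7 CPM. Its call was lost with Rag2 KO libraries alone. The gene had 6.8 CPM in microglia, 3.54 in OPCs, 0.70 in astrocytes and 0.62 in oligodendrocytes. Oligodendrocytes and astrocytes were not called different in it (edgeR adjusted p = 0.4255). Mlc1, Gja1, Gjb6 and Aqp4 are also on the astrocyte panel.

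**Figure D4:**
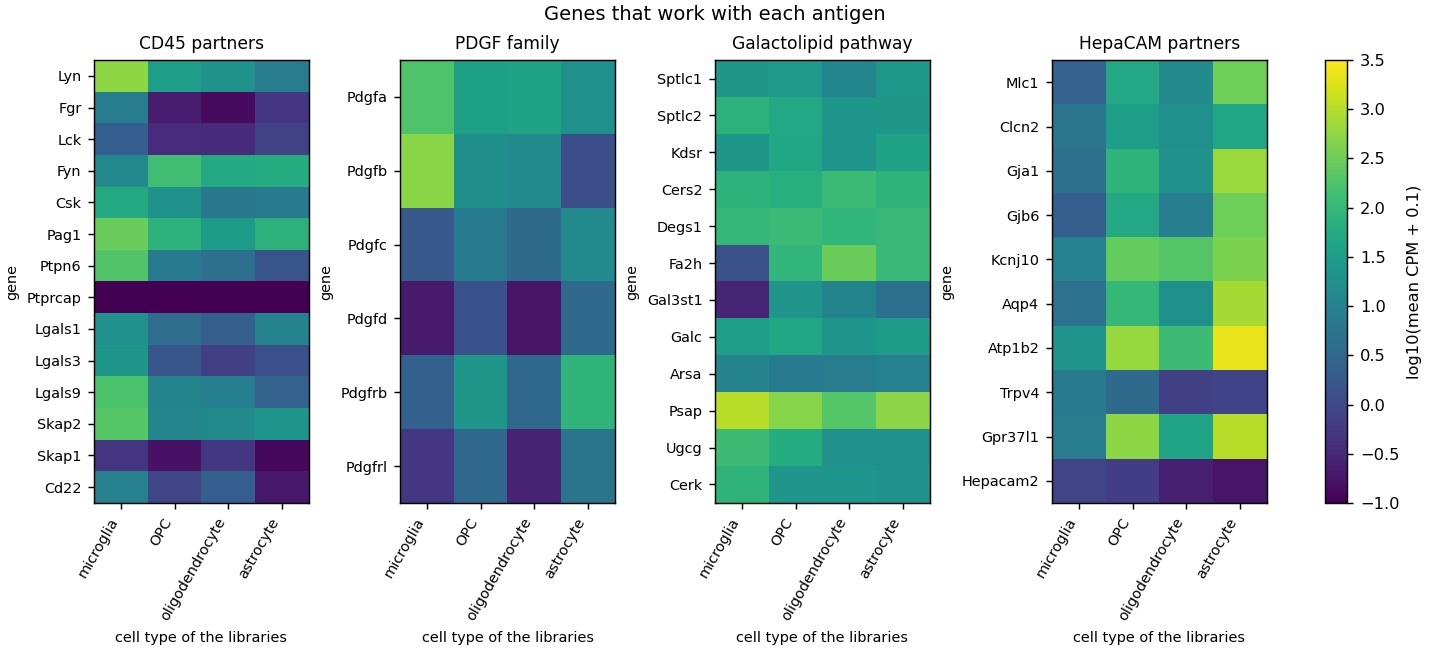
Mean level of genes of the 4 lists by cell type (1 CD45 partner is not shown), as log10(mean CPM + 0.1) in colour, with 1 row per gene and 1 column per cell type. Most CD45 and HepaCAM partner genes are brightest in the microglia and the astrocyte column, whereas Pdgfb (505.5 CPM) and Pdgfa (179 CPM) are brightest in microglia and the galactolipid genes, apart from Fa2h and Cers2, show no single bright column for oligodendrocytes.

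Other cell types that the antibodies could bind were read from lists of their markers, whose part in the results was not tested. Genes of border macrophages, which also carry CD45, summed to 447 to 1022 CPM in control and 474 to 932 CPM in Rag2 KO microglia libraries, led by Mrc1, with all 7 genes counted in both groups. Monocyte and neutrophil genes summed to 17.3 to 37.1 CPM in control and 10.2 to 98.9 CPM in Rag2 KO microglia. Lymphocyte genes summed to 9.21 to 33.2 and 10.98 to 31.8 CPM, led by Cd4, and Cd3e had no count in the Rag2 KO microglia libraries. Fibroblast genes, a second cell type known for PDGFRα, summed to 51.3 to 100.1 CPM in control and 46.0 to 112 CPM in Rag2 KO OPCs, led by Pdgfrb. These sums were not particular to OPCs. In astrocytes the same genes summed to 100.7 to 139.6 CPM in controls and 79.5 to 154 CPM in Rag2 KO, also led by Pdgfrb. On average Pdgfrb alone gave 92.1 of 129 CPM in control astrocytes, against 20.6 of 73.4 CPM in control OPCs. The astrocyte sum was thus mostly this gene, and Col3a1 had no count in control astrocytes. In control microglia and oligodendrocytes the sums reached at most 14.95 and 23.1 CPM. Endothelial and mural genes summed to 108 to 312 CPM in control and 134 to 516 CPM in Rag2 KO OPCs.

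Genes of newly formed oligodendrocytes summed to 1254 to 1493 CPM in control and 969 to 1424 CPM in Rag2 KO OPC libraries, led by Gpr17, and to 832 to 1345 and 1146 to 1827 CPM in oligodendrocytes, led by Bcas1. Neuron genes summed to 441 to 1665 CPM in control and 394 to 1280 CPM in Rag2 KO oligodendrocytes, led by Snap25. In OPCs neuron genes summed to 422.5 to 788 CPM in controls, and in microglia to at most 135 CPM.

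The effect of the Rag2 genotype was tested within each cell type with sex as a further term, in edgeR's quasi-likelihood test. Of all genes tested, 0.00667% (1 of 15003) were called in microglia, 0.00592% (1 of 16882) in OPCs, 0.0% (0 of 13802) in oligodendrocytes and 0.00679% (1 of 14725) in astrocytes. In oligodendrocytes 467 genes had an unadjusted p under 0.05 in edgeR, voom called 0 genes and DESeq2 on all genes called 201. None of the 16 tests of an antigen gene passed. The lowest unadjusted p among them was 0.0975, the lowest adjusted p 0.998, and none of the 16 had an unadjusted p under 0.05. DESeq2 and limma's voom called none of the 16 either, nor gave an unadjusted p under 0.05.

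In the cells panned on them the antigen genes were measured closely enough to bound the effect of genotype. Ptprc in microglia was at 445 ± 40.6 CPM in controls and 393.5 ± 38.4 in Rag2 KO (SD, n = 6 and 6), and the fitted log2 fold change was -0.16, with a 95% interval from -0.40 to 0.08. Pdgfra in OPCs was at 2196 ± 344.5 and 1840.0 ± 176 CPM (n = 6 and 5), with -0.18 and an interval from -0.40 to 0.04. Ugt8a in oligodendrocytes was at 239 ± 94.5 and 260.4 ± 58.3 CPM (n = 4 and 4), with 0.27 and an interval from -0.23 to 0.78. Hepacam in astrocytes was at 519 ± 76.0 and 493.2 ± 69.3 CPM (n = 6 and 6), with 0.00 and an interval from -0.19 to 0.20. The intervals hold the differences that these libraries leave possible at the 95% level. The smallest difference that could have been detected was not computed for these genes.

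In the other cell types the intervals differed in width. The widest was that of Ptprc in oligodendrocytes, 0.31 with an interval from -1.38 to 2.01, followed by Ugt8a in microglia, -0.12 with -1.47 to 1.23. Hepacam in OPCs was at 241 ± 31.7 CPM in controls and 263 ± 43.4 in Rag2 KO, with 0.19 and an interval from -0.06 to 0.44. Neither the listed partner genes nor the panel genes were called by genotype in any cell type.

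**Figure D5:**
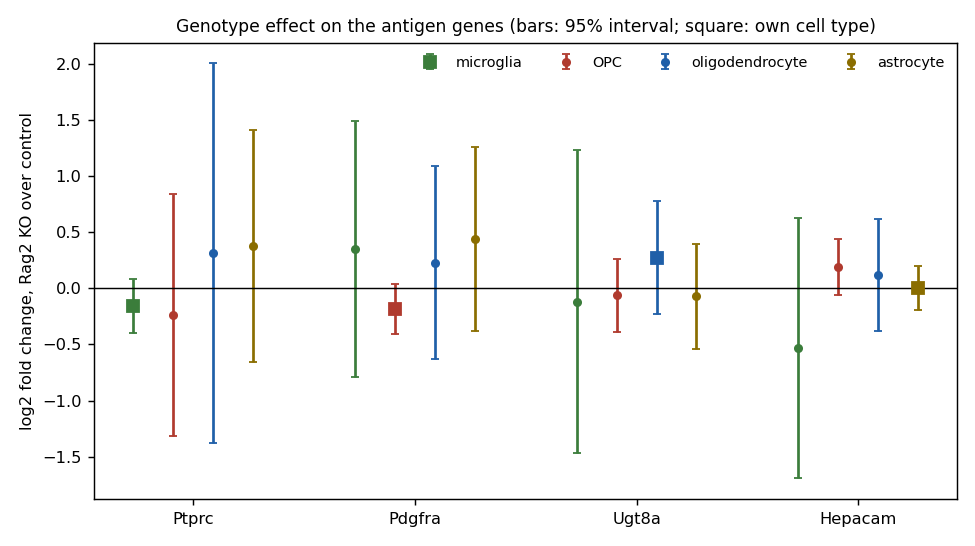
Fitted log2 fold change of Rag2 KO over control for each antigen gene in each cell type (colour), with the 95% interval from edgeR; squares mark the cell type panned on that antigen. All 16 intervals include 0, and the squares have intervals within -0.40 to 0.78.

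A test of whether the genotype effect differed between the 4 cell types, as an interaction over all libraries, called 58 of 19209 genes (0.302%), and 33 with the littermate pair as a block. None of the antigen genes was among them, with an edgeR adjusted p of 1.0 for each and unadjusted p-values of 0.867 for Ptprc, 0.871 for Pdgfra, 0.674 for Hepacam and 0.956 for Ugt8a.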

How the data were processed

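RNA of immunopanned cells was amplified (Ovation RNA-seq System V2), sequenced as read pairs of 50 bases, aligned by the authors with STAR 2.7.8a to GRCm39 (Ensembl annotation) and counted with HTSeq 0.13.5. The authors deposited raw counts of read pairs per gene for each library, with no normalization. Whether counting used strand is not given in the sources used here. Read pairs that the counting did not assign to a gene, for whatever reason (33.5 to 52.0% of a library), entered neither library sizes nor tests. Molecules were amplified before counting, so counts of genes at a few CPM vary by more than counting error, and counting error is all that small counts were read for.

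Groups came from the labels. The members and all gene lists were chosen with earlier results of these data known. Gene names and coordinates came from GENCODE M39 (GRCm39), which held 54749 of the 55416 identifiers, and the microglia panel gene Fcrls had no match. Of all 50-base stretches of member exons, at most 0.906% had another exact copy in the genome. No 2 libraries of a group agreed within sampling noise (smallest chi-square 7.45 per gene over 97 pairs).

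CPM used the total gene count. Tests used edgeR 4.0.16 in R 4.3.3 (quasi-likelihood, TMM factors, filterByExpr with a minimum count of 10 and total of 15, Benjamini-Hochberg adjustment, two-sided), with the standard error taken as the log2 fold change over the root of F and 95% intervals from it with the degrees of freedom of the fit. Alternatives were DESeq2's size factors, total counts, totals without mitochondrial genes, no filter, DESeq2 1.42.0 on all genes, voom with quality weights (limma 3.58.1), no term for sex, blocks for mouse or pair, 1 genotype alone, heterozygous controls alone, each library left out and, added after seeing the data, means of littermate pairs for the relations with panels. Tests were tried on simulated counts first. Python 3.11.15, numpy 2.4.6, pandas 2.3.3, scipy 1.17.1 and matplotlib 3.10.9 were used for levels, permutation tests and plots. Named genes were the 4 members, the genes of each partner list with the 3 largest and 3 smallest differences (1 of which is not reported here), the leading gene of other lists and the 5 genes most like each member. Others (Mlc1, Enpp2 and Omg levels, Sall1, Tnr, Gjb1, Slc1a2, Cd3e, Rag2 and Xist among them) were named after their values were seen.

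The littermate pairs are stated by the study and numbered in the labels. Deviations from group means correlated on average by 0.0865 in microglia, 0.0889 in OPCs, 0.111 in oligodendrocytes and 0.135 in astrocytes within pairs, against -0.0176, -0.0176, -0.0359 and -0.0258 across pairs. Cell types of 1 mouse correlated by 0.0318, against -0.0028 across mice.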

Additional observations from a re-analysis of the deposited data

Results flagged for a closer look

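In 5 of 32 groups of an antigen gene's CPM by cell type and genotype, 1 library stood apart from the others by Dixon's criterion at the 95% level, which chance alone flags in about 1 of 20 groups. Ptprc in oligodendrocyte controls was highest in pair 3, at 30.5 CPM, against 7.19 to 8.44 CPM in the other 3 libraries. Ptprc in Rag2 KO OPCs was highest in pair 3, at 29.3 CPM, against at most 10.8 CPM. Pdgfra in astrocyte controls was highest in pair 3, at 95.02 CPM, against at most 24.9 CPM. Ugt8a in Rag2 KO astrocytes was highest in pair 3, at 151 CPM, against at most 88.9 CPM. Hepacam in astrocyte controls was lowest in pair 1, at 373 CPM, against 519.5 CPM or more. The highest libraries of these groups were thus all of pair 3, from both its mice, and each was in a cell type that was not panned on that antigen. The cause was not tested.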

How the results depend on the processing

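The 12 differences between an antigen's own cell type and another kept direction and call under each scaling, filter, tool, mouse block, single genotype and left-out library tried for them. None of the 16 genotype tests was called with DESeq2's size factors, no filter, DESeq2, voom, no term for sex, the pair as a block, heterozygous controls alone or a library left out, and other scalings were not run for them. Among the other neighbours, Ptprc in OPCs over oligodendrocytes moved from -0.998 to 0.036 with total counts, and its call was lost with total counts without mitochondrial genes, with voom, with either genotype alone, with the mouse as a block (-0.74, adjusted p = 0.116) and without oligodendrocyte control 3 (-0.82), Rag2 KO 3 (-0.82) or Rag2 KO 5 (-0.72). The mouse and pair blocks changed no other call of an antigen gene. Without a filter, Pdgfra in astrocytes had an unadjusted genotype p of 0.0080, and with heterozygous controls alone Pdgfra and Ugt8a in microglia had 0.0470 and 0.0497.

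Total counts in place of TMM factors moved the median log2 difference of all genes between OPCs and oligodendrocytes from 0.14 to 1.19, between microglia and oligodendrocytes from -0.04 to 0.93, between OPCs and astrocytes from 0.13 to 0.53 and between oligodendrocytes and astrocytes from 0.08 to -0.58, and totals without mitochondrial genes moved it to 0.57, -0.06, 0.40 and -0.08. Of the called genes in these contrasts, 56.2%, 47.5%, 59.1% and 56.0% were higher in the first type with TMM factors, 93.1%, 69.6%, 80.1% and 26.2% with total counts and 79.8%, 47.1%, 74.8% and 47.6% without mitochondrial genes, and between microglia and OPCs the last moved the share from 43.8% to 30.8%.

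Percents of the own level moved beyond their SD with TMM scaling, to 6.34% (Ptprc) and 12.8% (Pdgfra) in oligodendrocytes, 23.9% (Ugt8a) and 37.6% (Hepacam) in OPCs, 22.95% (Ugt8a, astrocytes) and 42.0% (Hepacam, oligodendrocytes). Without mitochondrial genes Ptprc and Pdgfra in oligodendrocytes were at 6.38% and 9.42%, Ugt8a in OPCs at 32.4% and Hepacam in oligodendrocytes at 37.4%. Of the relations with the panels, Ptprc in oligodendrocytes was no longer past the threshold on a log2 scale (r = 0.66) and without the 2 farthest libraries (0.17), Ptprc in astrocytes on a log2 scale (0.51), with the panel mean (0.49) and without those libraries (0.43), and Hepacam in OPCs without them (0.51), while Hepacam in microglia passed on a log2 scale (0.63). With the mean of each littermate pair as 1 point, a reading added after seeing the data, Ptprc in OPCs (0.71) and astrocytes (0.86), Pdgfra in microglia (0.86) and astrocytes (0.94), Ugt8a in microglia (0.91) and Hepacam in OPCs (0.82) no longer passed, and oligodendrocytes, with 4 pairs, were not read this way.

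Genes called were 13442 between OPCs and oligodendrocytes with total counts, against 7753, and 4970 between OPCs and astrocytes with Rag2 KO libraries alone, against 8488. By genotype 9, 90, 14 and 30 were called in microglia, OPCs, oligodendrocytes and astrocytes without a filter, and 3, 5 and 201 in the first 3 with DESeq2 on all genes, against 1, 1, 0 and 1. Leaving out each library gave 1 to 2 in microglia. The interaction called 58 genes, 1011 without a filter, 33 with the pair as a block and 26 to 154 with each library left out, the extremes without oligodendrocyte Rag2 KO 5 and without oligodendrocyte control 1. The causes were not tested. Antigen genes at a few CPM rest on as few as 2 counts, which limits what can be read from single libraries there.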
